A study of Caenorhabditis elegans with 12 samples.

Results

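Many genes end their messages at more than 1 place, and the sites compared here were pairs of poly(A) sites within 1 gene. Every peak of read ends that the authors assigned to exactly 1 gene feature was taken, features that held 1 coding gene were kept, and a gene became a member when at least 2 of its peaks averaged 20 or more reads over the 12 libraries. The peak nearest the start of the gene was called proximal and the farthest one distal. This gave 991 genes with 1982 paired peaks, out of 13453 peaks in the series and out of 6324 genes with 1 coding gene and at least 1 peak of 20 mean reads. The members were thus chosen by read counts and position, not by tail length or by differences between groups. Just inside the limit were E01A2.2, crn-6 and pak-1, whose weaker peak averaged 20.1, 20.1 and 20.2 reads, and just outside it were sek-1, fhod-1 and bre-5, each with 19.9 reads.

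Cleavage and polyadenylation set the 3' end of a messenger RNA. The machinery cuts the nascent transcript downstream of a signal hexamer and a poly(A) polymerase adds the tail, so that a gene with several such signals can make transcripts with shorter or longer 3' UTRs, or transcripts that stop early inside the gene. In the early worm embryo, transcription is largely silent at first and stored maternal messages are regulated through their 3' UTRs, where RNA-binding proteins recruit the enzymes that shorten or lengthen tails in the cytoplasm.

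PAT-seq, which counts the 3' ends of adenylated RNA and measures the tail behind each end, was run on early Caenorhabditis elegans embryos, over 90% of them between the zygote and the 24-cell stage. The 6 groups had 2 libraries each. They were pos-1 RNAi, gld-3 RNAi, gld-2 RNAi and mex-5 RNAi, each a depletion by feeding of double-stranded RNA, the mutant mex-6(pk440), and the wild-type strain N2. The sample titles name the mutant, whereas the deposited tables head its columns as mex-6 RNAi, and its food was not clear from the labels. The pos-1, mex-5 and mex-6 genes encode CCCH-type RNA-binding proteins, gld-2 a poly(A) polymerase of the cytoplasm and gld-3 the RNA-binding protein that works with it. RNAi was given by feeding HT115(DE3) bacteria, whereas N2 had OP50, so food and RNAi cannot be told apart. The labels of all 12 libraries carry the same 6 h of IPTG, RNA input of 1 ug and size window of 120 to 300 bases. Of 11 early embryo maternal markers 10 were found, with a summed level of 1628 to 3236 CPM over the 12 libraries and none at 0, where 8 sperm markers summed to 3.48 to 78.3 CPM (CPM, reads scaled to the total of the library). The RNA of the targeted gene stood at 15.5% of N2 for pos-1, 8.46% for gld-3, 44.3% for gld-2, 8.07% for mex-5 and 2.36% for mex-6. Nothing in the labels says that replicates came from separate cultures, so p-values measure the spread between these libraries. In whole embryos, fewer cells of a type and less RNA per cell cannot be told apart.

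The libraries held 4520820 to 9436477 reads in peaks, of which 423450 to 943222 fell on the paired sites. Of the 991 genes, 781 had exactly 2 qualifying peaks and 210 had 3 or more, up to 7. The sites lay 51 to 30805 bp apart, with a median of 172 bp and quartiles of 97 and 548 bp. The peaks of the 268 pairs up to 100 bp apart overlapped, and the labels and files do not say how reads in the overlap were assigned. In 706 genes both peaks ended beyond the annotated end of the gene, in 276 genes the proximal peak ended inside the gene and the distal one beyond it, and in 9 genes both ended inside. The distal peak ended 688 bp past the annotated end in mex-3 and 817 bp past it in gld-1. Whether the annotated ends take in the 3' UTR was not checked, so a site beyond the end may lie in the 3' UTR. The widest pair belonged to sos-1, a guanine nucleotide exchange factor for Ras, with its proximal peak inside the gene. The narrowest, at 51 bp, belonged to F30A10.9. Member genes were longer than the other 5333 genes with a qualifying peak, at a median of 2803 bp against 2141 bp, and 38.3% of them had at least 2 annotated coding transcripts against 25.8% of the others. On chromosomes I to X, members made up between 13.7% (chromosome II) and 17.3% (chromosome I) of the genes with such a peak.

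Most genes kept the same site of the pair ahead in all libraries. Peaks between the paired sites, in the 210 genes with 3 or more, did not count in the shares. The proximal site took over 50% of the reads of the pair in all 12 libraries in 204 genes and under 50% in all 12 in 531 genes, while 256 genes had libraries on both sides. Averaged over the 12 libraries, 164 genes put under 10% of the reads of the pair on the proximal site and 54 put over 90% there. The median share per library lay between 26.3% and 36.5%. Replicates of a group differed by a median of 3.80 points in pos-1 RNAi and up to 6.87 points in gld-3 RNAi, and the range over all 12 libraries had a median of 19.1 points. The N2 replicates stood apart from each other, with median shares of 36.4% in replicate 1 and 26.3% in replicate 2, and 9 of the other 10 libraries lay between them. Replicate 1 had the higher proximal share in all 6 groups in 108 genes and the lower one in all 6 in 31 genes. In hrp-1, which encodes an hnRNP protein, the share was 12.6% and 4.12% in replicates 1 and 2 of pos-1 RNAi, 20.4% and 1.98% in gld-3 RNAi and 19.3% and 7.56% in N2.

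Named maternal genes showed both patterns. The proximal site of mex-3, whose KH-domain protein represses translation of cell fate regulators, took 2.83% to 8.81% of the reads of the pair, with a median of 4.78% over the 12 libraries. In gld-1, which encodes another KH-domain translational repressor, the proximal site averaged 2.67%, and in cgh-1, a DEAD-box helicase of germ granules, it averaged 9.85%. In par-2, whose RING-finger protein marks the posterior cortex, the proximal peak lay inside the gene, 8411 bp before the distal one, and took 70.3% to 89.8%. In gld-3 itself the proximal site, also inside the gene, held 58 and 41 reads in the 2 gld-3 RNAi libraries against 856 and 437 reads in N2, and the distal site held 13 and 10 reads in gld-3 RNAi against 154 and 138 reads in N2. Its proximal share was 81.7% and 80.4% in gld-3 RNAi libraries, against 84.8% and 76% in N2 libraries. Both sites lost reads and the share overlapped between the groups.

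The question put to the groups was whether depletion of an RNA-binding protein or of the polymerase changed which site was used. Reads at both sites were fitted with edgeR's quasi-likelihood test, in which a library's total at the pair cancels and the site-by-group term is tested, over a wider table of 1707 pairs with at least 5 mean reads. P-values were adjusted by Benjamini-Hochberg over that table with a threshold of 0.05. For pos-1 RNAi against N2, 0.117% of the wider table was called and 0 of 991 members. For gld-3 RNAi the table's share was 0% and the members' count 0, and for mex-6(pk440) both were again 0. For gld-2 RNAi the table's share was 0.0586% and 0 members passed. For mex-5 RNAi the share was 0.762% and 2 members passed, 1 with a higher and 1 with a lower proximal share, where 0.351% and 0.41% of the table were called in those directions. Between pos-1 RNAi and gld-3 RNAi, 0% of the table and 0 members passed. The test that any of the 6 groups differs called 0.644% of the table and 2 members.

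At an unadjusted p under 0.05, edgeR's test had 5.05% of members (50) for pos-1 RNAi, where 6.39% of the wider table passed, and 8.68% (86) for gld-3 RNAi, where 8.73% passed. It had 7.47% (74) for gld-2 RNAi against 9.9% of the table, and 8.48% (84) for mex-5 RNAi against 10.8%. For mex-6(pk440) the share was 2.42% (24) against 2.93%, for pos-1 RNAi against gld-3 RNAi 1.31% (13) against 2.4%, and for any of the 6 groups 5.55% (55) against 8.73%. Members, which made up 991 of the 1707 pairs of the table, thus passed no more often than the table in any of these comparisons. DESeq2 called 0 members for pos-1 RNAi with 0.234% of the table, 1 for gld-3 RNAi with 0.0586%, 2 for gld-2 RNAi with 0.527% and 7 for mex-5 RNAi with 1.35%. It called 0 for mex-6(pk440) with 0% of the table, 0 for pos-1 RNAi against gld-3 RNAi with 0.176%, and 7 for any of the 6 groups with 2.17%. The standard error of a site-by-group change had a median over members of 0.522 to 0.54 on the log2 scale, and 5% of members exceeded 1.41 in size for mex-5 RNAi. Of the 13 pairs called in the wider table for mex-5 RNAi, 8 lay in features that merge genes or hold no coding gene, as did 8 of the 11 called for any of 6 groups. With such features left out, 0 members were called in every comparison, at adjusted p values by edgeR of 0.108 for symk-1, 0.0563 for F02A9.4 and 0.0978 for both Y106G6D.6 and eps-8.

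Called in mex-5 RNAi was symk-1, which encodes symplekin, the scaffold of the cleavage and polyadenylation complex. Its proximal peak lay inside the gene (ce10 chrV:8575154-8575254, plus strand) and the distal peak 6153 bp downstream (chrV:8581307-8581407), 208 bp past the annotated end. The proximal site held 20 and 25 reads and the distal site 12 and 15 reads in mex-5 RNAi libraries, against 10 and 6 proximal and 33 and 27 distal reads in N2 libraries. The proximal share was 62.5% and 62.5% in mex-5 RNAi, against 23.3% and 18.2% in N2. All other groups lay between, from 32.4% to 44.2%, and none of the 12 values crossed between mex-5 RNAi and the rest. The log2 change of proximal over distal reads was 2.63 ± 0.49 (SE; adjusted p = 0.033 in edgeR's test), and the call was lost without any 1 library other than the gld-2 RNAi ones, at adjusted p values up to 0.222.

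F02A9.4 moved the other way in mex-5 RNAi. Its proximal peak lay inside the gene (chrIII:9086803-9086903, minus strand), 2583 bp before the distal peak (chrIII:9084220-9084320). Proximal reads were 27 and 14 and distal reads 294 and 174 in mex-5 RNAi libraries, against 114 and 90 proximal and 167 and 117 distal reads in N2 libraries. The proximal share was 8.41% and 7.45% in mex-5 RNAi, against 40.6% and 43.5% in N2, with the other 4 groups between 19.1% and 35.7%. The log2 change was -3.06 ± 0.47 (SE; adjusted p = 0.00991 in edgeR's test), and it missed the threshold without either mex-5 RNAi library (0.106 and 0.119) or either N2 library (0.0833 and 0.102). In mex-5 RNAi libraries the summed level of 6 late embryo and larva marker genes, 2 of them members, was 458 and 606 CPM, against 203 and 262 CPM in N2 libraries. None of the 6 was at 0 in all libraries, and other marker lists moved too. In mex-5 RNAi libraries 8 sperm markers summed to 3.48 and 5.54 CPM, against 54.3 and 78.3 CPM in N2, and 8 early zygotic markers to 41.5 and 45.7 CPM, against 118.9 and 131 CPM in N2. The 6 yolk and adult intestine markers summed to 66.6 and 69.7 CPM in mex-5 RNAi, against 149 and 241.7 CPM in N2, and the 10 maternal markers to 1790 and 1973 CPM, against 2796 and 3236 CPM in N2. The maternal list names mex-5 itself, the target, which averaged 36.45 CPM in mex-5 RNAi and 452.6 CPM in N2. The part of any of these lists in the shares was not tested.

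The 2 genes called over all 6 groups followed no single comparison with N2. Y106G6D.6 had a proximal share of 93.0% and 75% in pos-1 RNAi, 75.8% and 79.3% in gld-3 RNAi, 30.3% and 40.6% in gld-2 RNAi, 14.7% and 21.3% in mex-5 RNAi, 70.7% and 75% in mex-6(pk440) and 62.0% and 46.7% in N2. It rested on 22.4 proximal and 23.6 distal reads per library on average (adjusted p = 0.0228, edgeR). In eps-8, which encodes an actin-capping protein of microvilli, the share was 91.9% and 94.6% in pos-1 RNAi and 51.8% and 46.3% in mex-5 RNAi, against 71.6% and 73.0% in N2, with the 3 remaining groups at 66.7% to 79.7% (adjusted p = 0.0321, edgeR). Its pos-1 RNAi libraries stood above and its mex-5 RNAi libraries below all others, though distal reads were only 6 and 3 in pos-1 RNAi against 23 and 10 in N2. For eps-8 the call was lost in 11 of 12 fits that leave out 1 library (adjusted p up to 0.22) and for Y106G6D.6 in 7 of them (up to 0.159).

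**Figure D1:**
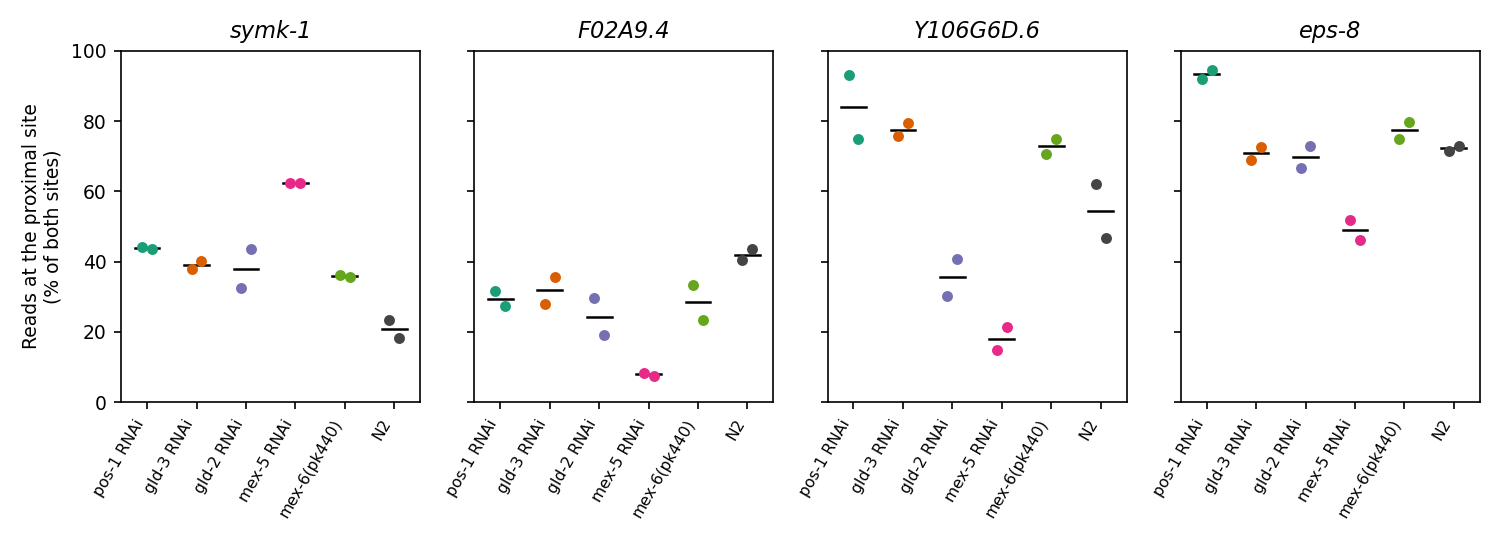
Share of the reads of a pair that fell on the proximal site (vertical axis, % of both sites) in each library of the 4 genes called by the test of site choice, with 1 point per library and a bar at the group mean. In symk-1 the mex-5 RNAi libraries stand at 62.5% and N2 at 23.3% and 18.2%, and in F02A9.4 mex-5 RNAi stands at 8.41% and 7.45% and N2 at 40.6% and 43.5%.

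Just short of the threshold was rcor-1, the homologue of the corepressor CoREST, with its proximal peak inside the gene 5281 bp before the distal one. Its proximal share was 24.1% and 31.2% in gld-2 RNAi, against 6.18% and 6.56% in N2 (log2 change 2.47 ± 0.42 SE, adjusted p = 0.0635, edgeR). In gld-3 RNAi libraries it was 22.9% and 27.5% (log2 change 2.30 ± 0.41, adjusted p = 0.243, edgeR), and these 2 comparisons share the N2 libraries. In both RNAi groups all libraries lay above all of N2. So did those of pos-1 RNAi (10.7% and 11.7%), mex-5 RNAi (11.6% and 14.3%) and mex-6(pk440) (9.21% and 8.82%), so N2 was the lowest of all groups. The call depended on the tool and the model. In gld-2 RNAi adjusted p was 0.00101 by DESeq2, 0.000411 by diffSpliceDGE and 0.0199 by edgeR with the replicate number as a block. In gld-3 RNAi it was 0.0122 by DESeq2 and 0.00109 by diffSpliceDGE. The direction depended on the pair: between the 2 peaks of rcor-1 with most reads the log2 change was -0.051 in gld-2 RNAi and -0.30 in gld-3 RNAi (adjusted p = 0.978 and 0.811, edgeR). A gene of large replicate error was cdc-14, a phosphatase of late mitosis, whose proximal share was 70.9% and 95.8% in the 2 gld-3 RNAi libraries and 42.3% and 80.0% in the 2 mex-5 RNAi libraries, against 50.7% and 43.0% in N2 (log2 changes 2.87 ± 1.06 and 0.84 ± 1.04, adjusted p = 0.548 and 0.851, edgeR). The replicates of both RNAi groups differed by more than 20 points, while those of N2 lay closer together.

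Genes of the machinery that cuts and adenylates RNA were measured beside the site choice. Of 17 listed genes, 15 were tested for expression with edgeR. In pos-1 RNAi 0 were called where 12.2% of all 9403 genes were, in gld-3 RNAi 0 against 8.08%, in mex-5 RNAi 0 against 30.8%, and in mex-6(pk440) 0 against 0.0213%. In gld-2 RNAi 2 of the 15 rose and 2 fell, about the same share as the 27.2% of all genes that were called. These 4 calls over the comparisons with N2 were 1 without gld-2 RNAi replicate 1, 2 without gld-2 RNAi replicate 2, 1 without N2 replicate 1 and 8 without gld-3 RNAi replicate 2. In gld-2 RNAi libraries the late embryo and larva markers summed to 401 and 425 CPM, against 203 and 262 CPM in N2, and the early embryo maternal markers to 1628 and 1714 CPM, against 2796 and 3236 CPM in N2. Early zygotic markers summed to 79.3 and 85.5 CPM in gld-2 RNAi, against 118.9 and 131 CPM in N2. Yolk and adult intestine markers summed to 261.6 and 269.9 CPM in gld-2 RNAi, against 149 and 241.7 CPM in N2. Sperm markers summed to 64.4 and 72.2 CPM in gld-2 RNAi, within the 54.3 and 78.3 CPM of N2. The part of these marker lists in the expression changes was not tested. cpsf-1 averaged 39.0 CPM in gld-2 RNAi and 19.96 CPM in N2 (log2 change 0.96 ± 0.28, adjusted p = 0.0237), and cpsf-2 averaged 21.4 CPM in gld-2 RNAi and 9.47 CPM in N2 (1.17 ± 0.31, adjusted p = 0.0146). Lower in gld-2 RNAi were cpsf-4, at 64.0 CPM against 124.8 CPM in N2 (-0.97 ± 0.27, adjusted p = 0.0194), and cfim-1, at 100.3 CPM against 168.8 CPM in N2 (-0.75 ± 0.20, adjusted p = 0.0148). cpsf-1, cpsf-2 and cpsf-4 encode subunits of the factor that binds the signal hexamer and cfim-1 a subunit of cleavage factor Im. Of this list, symk-1, fipp-1, pabp-2 and pcf-11 were themselves members, with a median proximal share of 30.6%.

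Tail length was compared within genes in the 415 members with a tail value and at least 10 reads at both sites in every library. The proximal-minus-distal difference of each library was tested against 0 with limma over 469 pairs of the wider table. Of all those pairs, 81.2% were called, 31.3% with a longer and 49.9% with a shorter proximal tail. Among members 336 of 415 passed, with the proximal tail longer in 121 and shorter in 215. The median difference was -4.45 nt for members and -3.83 nt over the table, with quartiles for members of -14.7 and 5.39 nt. In 64 genes the proximal tail was longer in all 12 libraries and in 150 it was shorter in all 12. The difference exceeded 20 nt in size in 99 genes, of which 77 had the shorter tail at the proximal site. The median tail per library was 39.7 to 44.2 nt at proximal sites and 41.4 to 49.4 nt at distal sites, and in each library between 244 and 268 of the 415 genes had the shorter tail at the proximal site.

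Tails of the 2 sites of a gene were almost unrelated. Across the 415 genes, the 12-library mean tails of proximal and distal sites had a Pearson r of 0.122, given as a description over genes of the same libraries. The mean tails of replicates 1 and 2 of the same site had an r of 0.984 over the proximal sites and 0.970 over the distal sites. Replicates ranked the sites alike, whereas the tail of 1 site of a gene said little of the tail at the other.

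The median tail differed with the position of the proximal site. Where both peaks ended beyond the gene, 305 genes were tested, with median tails of 44.6 nt at proximal and 46 nt at distal sites and a median difference of -1.84 nt. There 100 genes had a longer and 135 a shorter proximal tail. Where the proximal peak ended inside the gene, 105 genes were tested, with medians of 14.5 nt at proximal and 46.2 nt at distal sites and a median difference of -23.4 nt. Of these, 19 had a longer and 78 a shorter proximal tail. In each of the 12 libraries the median difference lay between -25.6 and -18.4 nt for proximal sites inside the gene and between -3.20 and -0.775 nt for those beyond it. The medians of these kinds of pair thus stood apart in every library, while the genes behind them overlapped. Not all sites inside genes took part. Split by the proximal tail itself, 60 of the 105 were under 20 nt, and all 60 had the shorter proximal tail. The 44 with proximal tails of 30 nt or more had medians of 44.1 nt at proximal and 45.1 nt at distal sites. Of those 44, 19 had a longer and 17 a shorter proximal tail.

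**Figure D2:**
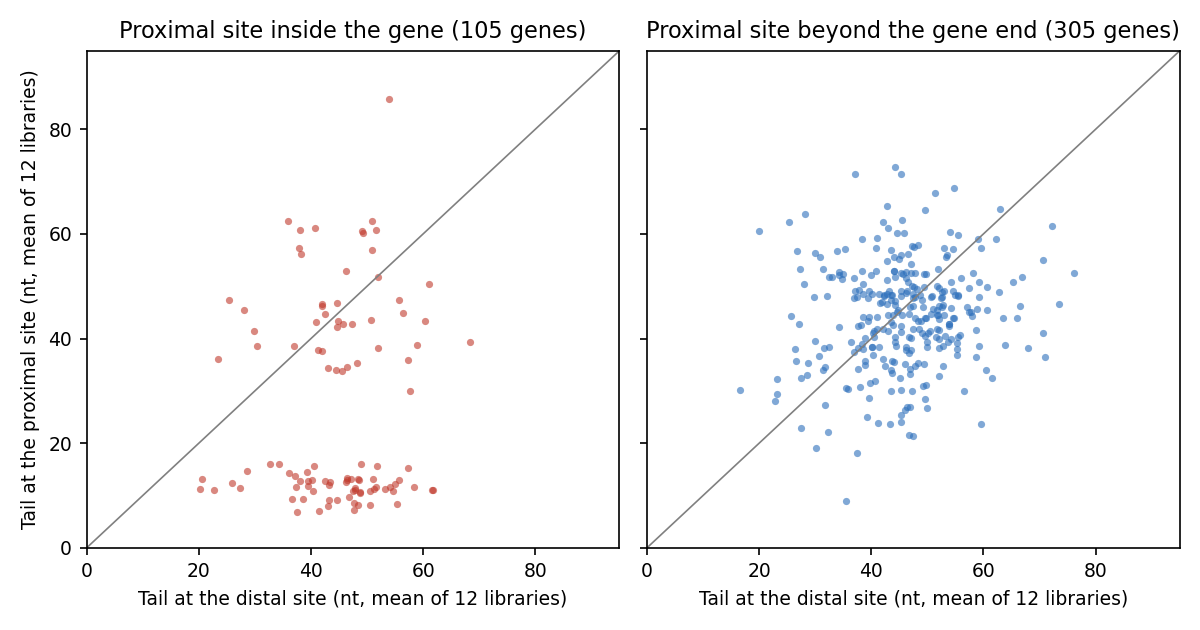
Mean tail over 12 libraries at the proximal site (vertical axis, nt) against the distal site (horizontal axis, nt), 1 point per gene, with the line of equal tails in grey. Proximal sites inside genes (left, 105 genes) split into a band under 20 nt with 60 genes and a spread group above 30 nt, while sites beyond the gene end (right, 305 genes) form 1 cloud.

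Inside genes the proximal tails fell into separate ranges, described with a limit of 20 nt that was chosen after the values were seen. 60 of the 105 genes had a mean proximal tail of 6.83 to 16.1 nt, 1 gene lay between 20 and 30 nt, and 44 genes had 33.7 to 85.7 nt. The short ones hardly varied, with a median SD over the 12 libraries of 0.441 nt, where the distal sites of the same genes had a median SD of 3.82 nt and a median tail of 46.4 nt. Proximal sites of 30 nt or more had a median SD of 5.22 nt. Among these the median SD rose with the tail, from 3.18 nt at 30 to 40 nt to 6.76 nt at 60 nt or more. Spreads in nt at short and long tails are thus not directly comparable. The median of the short group stood between 11.4 and 12.0 nt in every library, while the distal median of all 105 genes ranged from 41.1 to 48.7 nt. Among these sites, which had to hold reads in every library to be tested, the short ones had a median of 124 reads per library and a median share of 40.7% of the pair. Of proximal sites beyond the gene end that had tails in all libraries, 3 of 349 were under 20 nt, as were 3 of 865 distal sites, against 69 of 133 proximal sites inside genes. Over the whole series 181 of 7068 peaks with tails (2.56%) were that short, with 144 of the 2232 peaks listed by the authors as in a gene only.

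Per the labels, the protocol carries forward only RNA whose own 3' end was extended on the anchor, a step meant to keep internal A-rich stretches out. Genome sequence around the peaks was not used here, so whether the genome encodes a run of A at the short sites was not tested, and the deposited tail length does not tell such a run from an added tail.

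**Figure D3:**
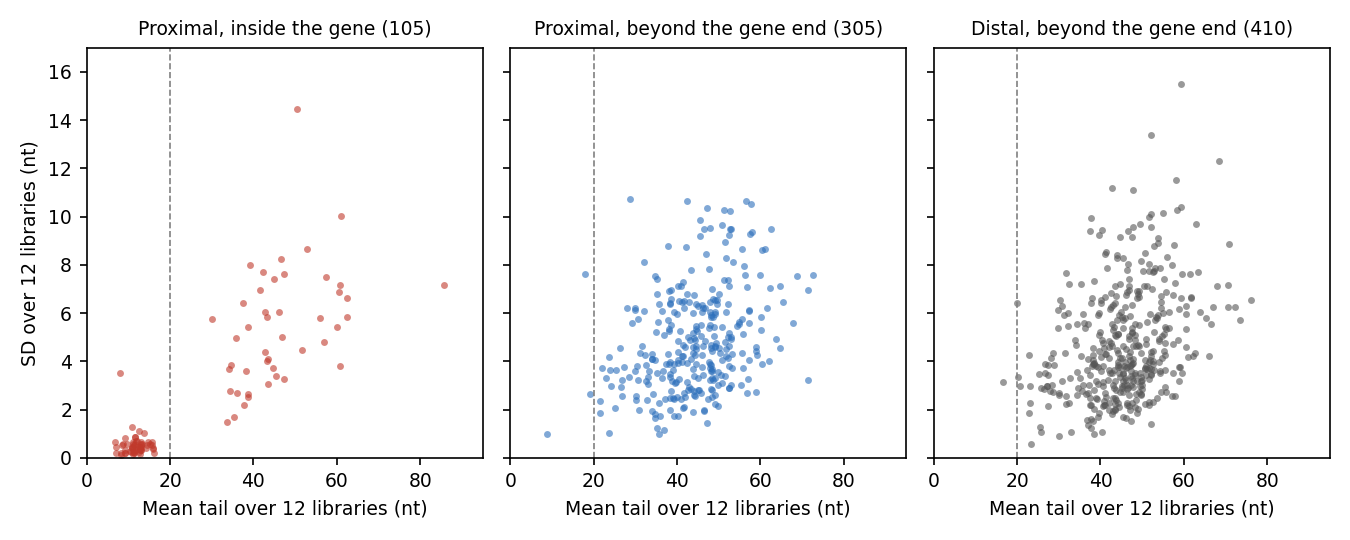
SD of the tail over 12 libraries (vertical axis, nt) against its mean (horizontal axis, nt), 1 point per site, for proximal sites inside genes, proximal sites beyond the gene end and distal sites, with a dashed line at 20 nt. The short sites inside genes gather at a median SD of 0.441 nt, and distal sites of the same genes have a median SD of 3.82 nt.

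The 10 genes whose proximal tail fell furthest below the distal one all belonged to that class. F46B6.5 had proximal tails of 9.61 to 12.0 nt, with a median of 11.1 nt over the 12 libraries, and distal tails of 46.6 to 69.1 nt, with a median of 62.6 nt. The difference was -50.8 ± 1.27 nt (SE, limma, adjusted p = 9.79e-14), and the ranges did not overlap. In cey-4, which encodes a Y-box RNA-binding protein, proximal tails were 12.7 to 13.1 nt and distal tails 43.6 to 64.3 nt, a difference of -42.7 ± 2.03 nt. The other 8 were C18B12.6 (-50.5 nt), ZC449.5 (-46.9 nt), hsr-9, a homologue of 53BP1 (-46.7 nt), rsy-1 (-43.7 nt), nrde-2, a factor of nuclear RNAi (-42.8 nt), T23G7.3 (-42.4 nt), sop-2, a repressor of Hox genes (-42.4 nt), and acin-1, the homologue of the splicing-associated protein acinus (-42.2 nt). Each had the shorter proximal tail in 12 of 12 libraries, and their mean proximal tails lay between 8.22 and 15.2 nt. For hsr-9 the sign depended on the pair, since between its 2 peaks with most reads the proximal tail was longer by 11.6 nt.

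Of the 10 genes with the largest excess at the proximal site, 8 had both peaks beyond the gene end. C35C5.3 had proximal tails of 52.5 to 66 nt, with a median of 60.6 nt, and distal tails of 9.46 to 30.2 nt, with a median of 19.8 nt, at sites 138 bp apart (difference 40.5 ± 1.88 nt, SE, limma, adjusted p = 3.93e-11). The 12 proximal values all lay above the 12 distal values. In mlt-11, which encodes a protease inhibitor needed for molting, sites 71 bp apart carried 66.3 to 77.0 nt proximally and 34.6 to 39.3 nt distally, a difference of 34.3 ± 0.905 nt. Its peaks averaged 807 and 580 reads, and how many of them gave a tail is not stated. In elt-3, a GATA factor of the epidermis, sites 98 bp apart carried 55.5 to 71.3 nt and 25.3 to 36.0 nt, a difference of 35.6 ± 1.59 nt. The others among the 10 largest were W03F9.10 (36.8 nt), tir-1, the homologue of SARM1 (31.8 nt), php-3, a posterior Hox gene (29.9 nt), uso-1, a vesicle tethering factor (28.6 nt), hum-2, a class V myosin (26.6 nt), eat-20 (26.3 nt) and cyy-1, a cyclin Y (26.1 nt). All 10 were longer at the proximal site in 12 of 12 libraries. The peaks of mlt-11, elt-3, php-3 and uso-1 overlap, and how reads in the overlap were assigned is not stated. tir-1 and hum-2 were the 2 whose proximal site lay inside the gene. For tir-1, which has 3 qualifying peaks, the sign depended on the pair, since between its 2 peaks with most reads the proximal tail was shorter by 5.33 nt.

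**Figure D4:**
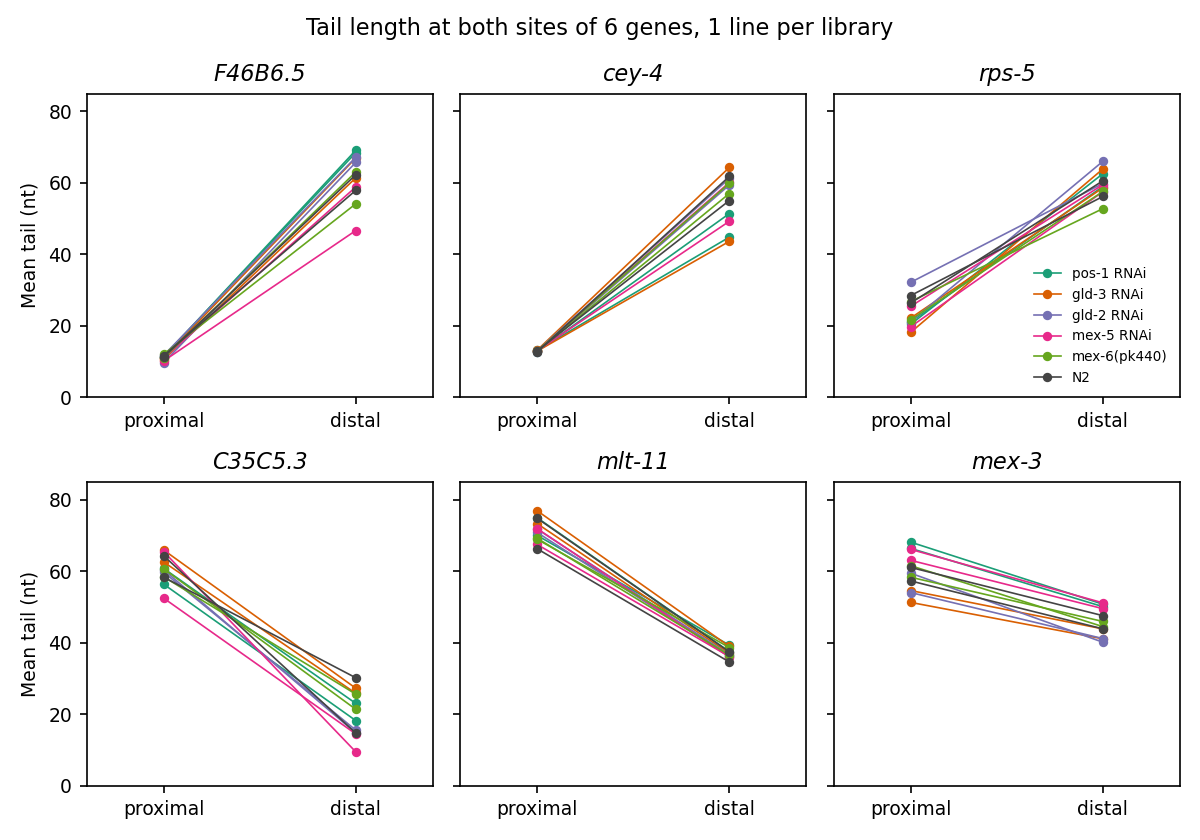
Mean tail (vertical axis, nt) at the proximal and the distal site of 6 genes, with 1 line per library and colours for the groups. Lines of every library slope up in F46B6.5, cey-4 and rps-5 and down in C35C5.3, mlt-11 and mex-3.

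Among ribosomal protein and translation factor genes, 12 of the 15 tested had a shorter proximal tail, where 51.8% of all 415 members tested did. The list held 19 members with a median proximal share of 82.4%, where all members had 32.1%. None of the 15 was called longer by limma and 3 were not called, and 4 members had no tail test, with a median difference of -9.01 nt against -4.45 nt over all members tested. rps-2, a protein of the small subunit, put 91.6% to 96.7% of the reads of the pair on the proximal site, with proximal tails of 16.1 to 25.3 nt and distal tails of 28.6 to 31.3 nt (difference -10.97 ± 0.844 nt, adjusted p = 1.55e-08, limma). Values of the 2 sites did not overlap although the sites lay 62 bp apart. rps-5 had tails of 18.1 to 32.1 nt proximally and 52.8 to 66 nt distally, with 5928 and 92.4 reads on average (difference -35.9 ± 1.66 nt). In rla-2, an acidic protein of the large subunit stalk, the difference was -19.8 ± 0.796 nt, and in rpl-43 it was -6.07 ± 1.07 nt. The peaks of rps-2, rla-2 and rpl-43, at 62, 79 and 64 bp apart, overlap, and how reads in the overlap were assigned is not stated.

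Other groups of genes were smaller, and their counts stand beside 29.2% longer and 51.8% shorter among all 415 members tested. Of 16 members among maternal RNA-binding and cell fate genes, 8 were tested, with 2 longer and 6 shorter proximal tails. mex-3 was one of the 2, with proximal tails of 51.3 to 68.2 nt and distal tails of 40.2 to 51.2 nt (difference 14.3 ± 0.993 nt, adjusted p = 4.49e-09, limma). It was longer at the proximal site in 12 of 12 libraries, on a site with 5.54% of the reads of the pair. Among 6 polarity and cytoskeleton genes, 3 were tested. nmy-2, the nonmuscle myosin of the cortex, was longer by 17.3 ± 1.02 nt at the proximal site, and par-2 was shorter there by a difference of -8.68 ± 1.53 nt, in 11 of 12 libraries. All 4 tested ubiquitin and proteasome genes that passed, out of 5, were shorter, among them ubc-3 (-11.4 nt) and skr-7 (-12.98 nt). Of 4 tested chromatin genes 3 were longer, with set-1, the methyltransferase of histone H4 lysine residues, at 20.3 ± 1.93 nt. Of the splicing list 2 were tested and both were shorter, hrp-1 by a difference of -18.0 nt and snr-3 by -13.5 nt. Of the 4 signalling genes tested, 1 was longer and 1 shorter.

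No member pair was called for a tail difference that changed between groups. Against N2, limma called 0 of 415 members for pos-1 RNAi, gld-2 RNAi, mex-5 RNAi and mex-6(pk440), where 0% of the 469 pairs was called, and 0 for gld-3 RNAi, where 0.426% was called, 0.213% in each direction and both in features that merge genes or hold no coding gene. Between pos-1 RNAi and gld-3 RNAi and for any of the 6 groups, 0 members and 0% of the pairs passed. At an unadjusted p under 0.05, limma had 6.02% of members (25) for pos-1 RNAi, where 5.76% of the 469 pairs passed, 8.67% (36) for gld-3 RNAi against 9.38%, and 6.75% (28) for gld-2 RNAi against 7.68%. For mex-5 RNAi the share was 9.88% (41) against 10.7% and for mex-6(pk440) 2.17% (9) against 2.13%. Between pos-1 RNAi and gld-3 RNAi it was 6.02% (25) against 6.18%, and for any group 10.1% (42) against 11.1%. The members made up 415 of these 469 pairs, so their shares had to lie near those of the table. The standard error of a change between groups had a median of 5.42 nt, against 1.57 nt for the mean difference over all libraries. With 2 libraries a group, changes of a few nt were not detectable and larger ones also went uncalled. In pqn-80 the difference changed by -30.3 ± 8.07 nt in gld-3 RNAi against N2 (SE, adjusted p = 0.224, limma). The absence of calls thus does not exclude changes of that size in single genes.

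Nearest the threshold was Y66H1A.4 in gld-2 RNAi. Its proximal tail was 49.5 and 51.1 nt in gld-2 RNAi libraries, against 37.6 and 36.2 nt in N2 libraries, and its distal tail 77 bp downstream was 53.4 and 53.2 nt in gld-2 RNAi, against 56.0 and 54.9 nt in N2. The proximal-minus-distal difference changed by 15.5 ± 2.99 nt (SE, adjusted p = 0.0658, limma), and the groups did not overlap at the proximal site. It passed with at least 50 reads per site (adjusted p = 0.00919, limma) and with weights by reads (0.0384, limma). The peaks of Y66H1A.4 overlap, and how reads in the overlap were assigned is not stated. knl-3, a kinetochore protein, changed by 12.2 ± 3.40 nt in gld-2 RNAi and 11.3 ± 3.40 nt in gld-3 RNAi against the same N2 libraries (adjusted p = 0.275 and 0.240, limma).

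Not every site with reads had a tail value, and the sites differed in this. Tails were given in all 12 libraries for 482 of 991 proximal and 865 of 991 distal sites. Among sites with at least 50 reads in every library, 57 of 296 proximal sites (19.3%) lacked a tail in at least 1 library, against 2 of 570 distal sites (0.351%). For pairs up to 100 bp apart it was 22 of 105 proximal sites against 0 of 135 distal sites, and for pairs over 500 bp apart 14 of 66 against 1 of 132. In dnj-11, a DnaJ-domain chaperone, the proximal site averaged 139 reads, from 43 to 290 per library, with no tail in any library. The highest count without a tail value at a paired site was 4541 reads, and the lowest count with one was 10 reads. The sources do not give the number of reads behind a tail or the rule for a missing one, so the 576 members without a tail test are described by their read shares alone.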

How the data were processed

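PAT-seq libraries of 12 embryo samples were grouped by sample title. The columns headed mex-6 RNAi were taken as the mutant mex-6(pk440) after the titles. Whole-number counts per peak and per gene, with no normalization, and mean tail lengths in nt per peak were deposited by the authors. The deposited peak and gene positions, in bp, are on ce10. Bowtie2 2.2.2 and ce10 are named in the submitters' processing notes. Peaks were called by nesoni, per the file headers, with settings that the labels do not state. The members and gene lists were chosen with earlier results of these data known. Site choice was tested with edgeR 4.0.16 (R 4.3.3) as a quasi-likelihood fit of proximal and distal reads with 1 coefficient per library and a site term per group, scaled by summed peak reads. For tail differences, limma 3.58.1 was fitted with its variance trend. Tests were two-sided and were tested on simulated data. Genes were named by rule: up to 5 called members a direction in each comparison, or else the 3 of smallest p, up to 12 called over all groups, the 10 largest tail differences each way, genes targeted or named earlier, the 3 widest and 3 narrowest pairs, members at the limit of 20 reads, and the most read members of each list, 4 at most. The gene dnj-11 was chosen after its values were seen. Chi-square per degree of freedom between replicates was 9.04 to 33.2, above sampling noise. Alternatives included DESeq2 1.42.0 and diffSpliceDGE. Reads are not independent molecules.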

Additional observations from a re-analysis of the deposited data

Results flagged for a closer look

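Site choice in 4 genes differed between groups in the edgeR test of the site-by-group term. In mex-5 RNAi against N2 the proximal-over-distal log2 change was 2.63 for symk-1 and -3.06 for F02A9.4, and over any of the 6 groups the adjusted p was 0.0228 for Y106G6D.6 and 0.0321 for eps-8. All 4 have a proximal peak inside the gene, at 22.4 to 61.8 mean reads.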

How the results depend on the processing

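Of the counts of called members, 305 recomputed values stayed within 1.5 times the main count and 52 did not. The calls of site choice were few and unstable. In mex-5 RNAi (2 called) DESeq2 gave 7, diffSpliceDGE 6, the replicate block 7, members from 50 mean reads 1, the 4 libraries alone 1, the 2 strongest peaks of each gene 4 and, chosen after seeing the data, features of 1 coding gene alone 0. For any of 6 groups (2 called) DESeq2 gave 7, the replicate block 5, and members from 50 mean reads and features of 1 coding gene alone 0 each. Where 0 were called, DESeq2 gave 1 for gld-3 RNAi and 2 for gld-2 RNAi, diffSpliceDGE gave 1 for pos-1 RNAi, 3 for gld-3 RNAi and 7 for gld-2 RNAi, and the replicate block gave 2 for gld-2 RNAi. Leaving out 1 library gave 0 to 2 for mex-5 RNAi, 0 to 1 for gld-2 RNAi and 0 to 5 for any of 6 groups. The cause was not tested.

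For tails, the mean difference gave 336 called members, 111 of 129 tested with at least 50 reads, where fewer pairs are tested, and 326 to 338 without 1 library. The tail change in gld-2 RNAi (0 called) gave 1 with at least 50 reads and 1 with weights by reads, any of 6 groups gave 1 with at least 50 reads and 0 to 1 without 1 library, and pos-1 RNAi against gld-3 RNAi gave 2 with the 4 libraries alone. With the 2 strongest peaks as the pair, signs turned for rcor-1 (-0.30 in gld-3 RNAi, -0.051 in gld-2 RNAi, log2), sec-24.2 (-1.71 nt in mex-5 RNAi), tir-1 (-5.33 nt) and hsr-9 (11.6 nt). Calls of 3' end processing genes (4) were 8 with the replicate block and 1 to 8 without 1 library.

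The labels do not say that a replicate number marks a shared batch, and the numbers were not used for pairing because same-numbered deviations did not all correlate over 0.1. For shares, 9 of 15 pairs of groups did (r from -0.249 to 0.655, median 0.24) and 12 of 15 were above 0, so numbers may still share something for part of the genes. For tail differences 3 of 15 did. Depth limits the shares, since members reach down to 20 mean reads.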
